A study of Drosophila melanogaster with 48 samples.

Results

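The sex difference of the young, uninjured Drosophila brain was examined by setting male sham brains against sham brains of females mated with wildtype males, both taken on day 4 after eclosion. The libraries were chosen by the header of their count column, which gave 3 male and 3 wildtype-mated female libraries, 6 of the 48 libraries of the series. All 17869 genes of the tables, among 23932 features, were considered, and 12124 of them passed the filter on low counts and were tested. The males and the wildtype-mated females were progeny of nSyb-GAL4 males and w1118 females and are labelled WT, so each fly carried a neuronal GAL4 driver without a target transgene. Sham flies went through the injury procedure without head impacts, and the females had been given 24 hr with wildtype males before the sexes were separated. The paper does not make clear whether the sequenced males had also been with females. Each library is a pool of 40 dissected brains, and the 3 libraries of a group come from independent cohorts. The paper does not make clear whether male and female libraries share cohorts. Males received their only X chromosome from the w1118 mother, whereas females also carried an X from the nSyb-GAL4 father, and for X-linked genes sex and X haplotype cannot be told apart. The remaining libraries include virgin females and SP0-mated females, whose mates lack sex peptide, each with D3Inj groups that received head impacts on day 3, and the same groups on day 45.

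In Drosophila, a fly with a pair of X chromosomes makes the RNA-binding protein Sxl, which blocks dosage compensation and starts a splicing cascade through transformer to the sex-specific forms of doublesex (dsx) and fruitless (fru). In males, where Sxl protein is absent, the MSL complex assembles with the noncoding RNAs roX1 and roX2 on the X chromosome and raises its transcription. Fat body lies around the brain and makes yolk proteins in females, and hemocytes, the blood cells of the fly, circulate or attach to tissues and phagocytose debris and microbes.

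The count columns named for males carried the male RNA roX1 at more than 100 CPM (a gene's counts scaled to a common library size, after TMM normalization) in 3 of 3 libraries, and none of the 3 columns named for wildtype-mated females did. The deposit record names another sample for all 6 tables. By the record, 3 of 3 male tables would hold roX1 under 100 CPM, and 0 genes would be called, with 246 at an unadjusted p under 0.05. Summed levels of 14 neuronal markers were alike, at 17945 to 19897 CPM in males, against 17759 to 19232 CPM in wildtype-mated females. Of the 6 libraries, female 3 held 22 gut genes at a summed 1805 CPM, against 6.73 to 20.5 CPM in the other 5 libraries. Male 1 alone was high in Cyp4g1, and female 2 was highest in several fat body genes.

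Males and wildtype-mated females differed at 874 of 12124 genes (7.21%) at an adjusted p under 0.05 in edgeR's quasi-likelihood test. Of these, 427 (3.52% of the genes tested) were higher in males and 447 (3.69%) were lower. Most differences were small: 535 called genes changed by less than 0.5 on the log2 scale, and 192 (1.58%) by at least 1, of which 62 were higher and 130 lower in males. The median log2 fold change was 0.29 among genes higher in males and -0.49 among genes lower in males. In 845 of the 874 called genes the 3 male and the 3 female libraries did not overlap, which was so for 22% of all genes tested. Called genes included 824 protein-coding genes. An exon of another gene lay on the opposite strand at 235 of the 874, and since the strand setting of the counting is not given in the sources used here, reads of such partners cannot be told apart. The count of calls was 556 without male 1, 571 without male 3, 558 without female 2, 562 without female 3 and 406 without both male 1 and female 3. Without any single library other than female 1, the genes called higher in males numbered 241 to 252. Among the genes named here, the 12 largest rises and the 12 largest falls were taken by rule, together with the called members of the gene lists.

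**Figure D1:**
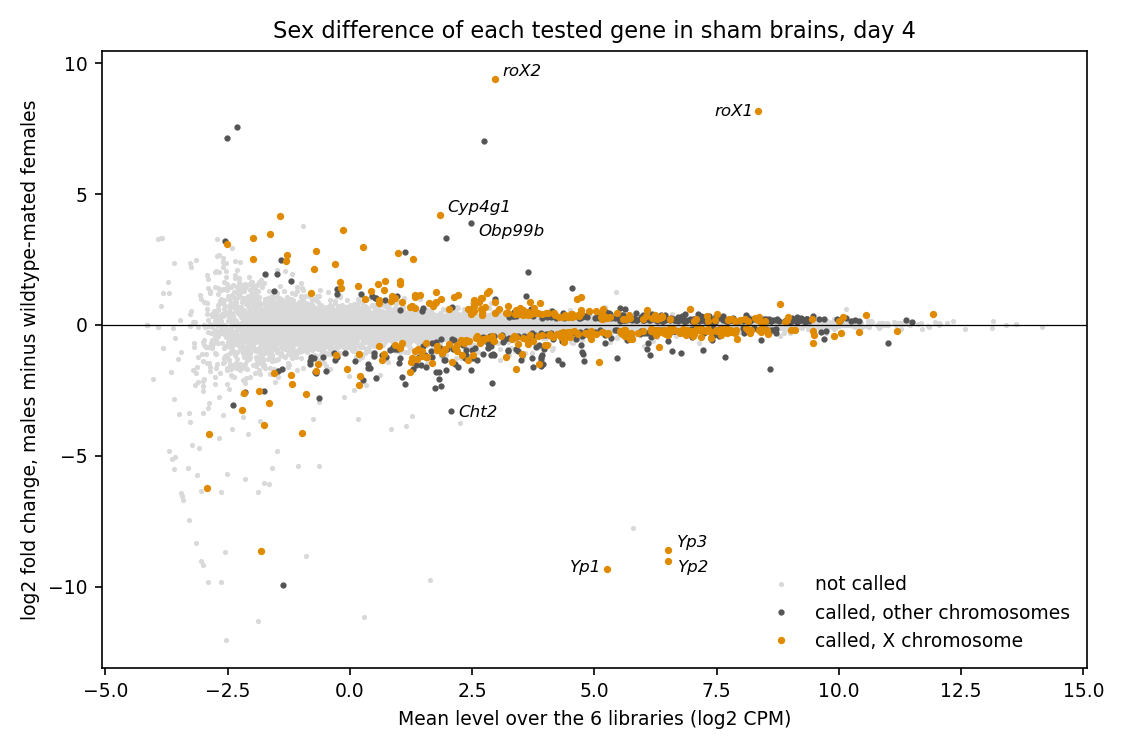
Log2 fold change (males minus wildtype-mated females, sham, day 4) of each of the 12124 genes tested against its mean level in log2 CPM, with grey points for genes not called, dark points for called genes and orange points for called genes on the X. The 427 genes higher and 447 genes lower in males are spread over the range of levels, and most differ from 0 by less than 0.5, while roX1, roX2 and the yolk protein genes stand far from the rest.

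The genes of dosage compensation split into the roX RNAs and everything else. roX1, at X:3857230-3862697 (dm6), had 5402, 5714 and 5612 CPM in males, against 20.6, 20.4 and 16.2 CPM in wildtype-mated females. roX2, at X:11579065-11580432, had 205, 186 and 174 CPM in males, against 0.274, 0.201 and 0.36 CPM in wildtype-mated females. The male libraries lay far above the female ones at both RNAs (log2 fold change 8.19 ± 0.097 (SE), edgeR adjusted p = 3.58e-25 for roX1; log2 fold change 9.41 ± 0.23 (SE), edgeR adjusted p = 1.43e-18 for roX2). The protein partners did not follow. Transcripts of msl-2, which encodes the subunit whose translation Sxl blocks, had 59.1, 52.3 and 52.6 CPM in males, against 53.6, 53.7 and 47.4 CPM in wildtype-mated females, with overlapping groups (log2 fold change 0.082 ± 0.055 (SE), edgeR adjusted p = 0.499). The other 7 list members without a call (msl-1, msl-3, the helicase mle, the acetyltransferase mof, Clamp, JIL-1 and Unr) had log2 fold changes between -0.10 and 0.062. The called members were roX1 and roX2, 2 of 10 (20%, against 7.21% of all genes tested), and both kept their call under every alternative run for single genes (assignment by the record was run for counts only). The kinesin gene nod, chosen after its values were seen, starts 339 bases beyond the end of roX2 on the same strand. It had 3.67, 2.51 and 3.43 CPM in males, against 0.304, 0.468 and 0.44 CPM in wildtype-mated females (log2 fold change 2.99 ± 0.37 (SE), edgeR adjusted p = 1.08e-05), and whether reads of roX2 run into nod was not tested.

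The X chromosome carried a larger share of the sex difference than the autosomes. Of 1971 X-linked genes tested, 387 were called (19.6%), 163 higher (8.27%) and 224 lower (11.4%) in males. On the autosomal arms 2L to 3R, 473 of 9959 genes were called (4.75%), 255 higher (2.56%) and 218 lower (2.19%). The X thus held 44.3% of the called genes and 44.8% of those that changed by at least 1 on the log2 scale, against 16.3% of the genes tested. The differences ran in both directions, and the bulk of the X stayed level: the median log2 fold change was -0.044 over X genes, with 78.9% of them within 0.5 of 0, and 0.015 over autosomal genes. At levels of 6 log2 CPM and above, 8.03% of X genes were higher and 17.3% lower in males, against 7.58% higher and 3.14% lower among autosomal genes. Called X genes had a median of 0.49 when higher and -0.38 when lower, and called autosomal genes 0.22 and -0.71. Without single libraries the calls on the X numbered 106 to 138 higher and 166 to 220 lower, the fewest without female 3. On the autosomal arms, leaving out any single library other than female 1 left 125 to 133 genes higher and 130 to 184 lower. On the small chromosome 4, 5 of 102 genes were higher and 2 lower (6.86% called, against 7.21% of all genes tested).

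**Figure D2:**
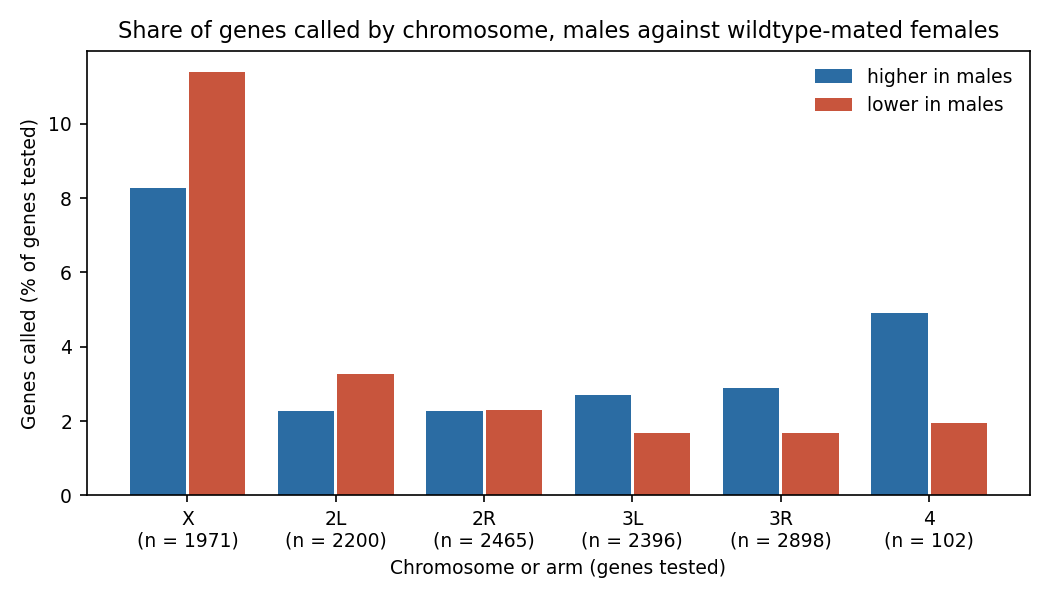
Percent of the genes tested on each chromosome or arm (x axis, with the number tested) that were called higher (left bars) or lower (right bars) in males than in wildtype-mated females. The X stands out with 8.27% higher and 11.4% lower, while the arms 2L to 3R lie between 1.67% and 3.27% in either direction.

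Among X-linked genes with known roles, the following were chosen after their values were seen. Tsf1, the iron-binding transferrin, at X:18387084-18390344, had 578, 616 and 573 CPM in males, against 339.7, 328 and 338 CPM in wildtype-mated females (log2 fold change 0.81 ± 0.079 (SE), edgeR adjusted p = 4.17e-07). All male libraries were above all female libraries, as they were for rumpel, a transporter gene of glia, which had 160.4, 150.0 and 146 CPM in males, against 108, 101 and 94 CPM in wildtype-mated females (log2 fold change 0.59 ± 0.066 (SE), edgeR adjusted p = 2.81e-06). The growth regulator Myc went the other way and had 46.4, 42.8 and 42.5 CPM in males, against 58.7, 68.1 and 64 CPM in wildtype-mated females (log2 fold change -0.54 ± 0.060 (SE), edgeR adjusted p = 3.15e-06). Notch (N), the receptor of lateral inhibition, had 99.98, 102 and 108 CPM in males, against 137, 131 and 137 CPM in wildtype-mated females (log2 fold change -0.38 ± 0.046 (SE), edgeR adjusted p = 8.82e-06). Pink1, a kinase that marks damaged mitochondria, had 117, 114 and 122 CPM in males, against 143, 151 and 152 CPM in wildtype-mated females (log2 fold change -0.34 ± 0.037 (SE), edgeR adjusted p = 2.03e-06). In each of these 3 genes the male libraries were all below the female ones. The mitochondrial ADP/ATP carrier Ant2 had a log2 fold change of -1.34 ± 0.15 (SE) (edgeR adjusted p = 3.43e-06), but it shares exons with its neighbour sesB and its reads may be split. The eye pigment transporter gene white (w), mutated in the maternal strain, had 5.35, 4.33 and 6.45 CPM in males, against 5.82, 4.12 and 6.87 CPM in wildtype-mated females, with overlapping groups (log2 fold change -0.056 ± 0.16 (SE), edgeR adjusted p = 0.91).

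Y-linked RNA was nearly absent. Of 113 Y-linked genes, 39 had a count in the 3 male libraries and 9 in the 3 female libraries, and 2 passed the filter on low counts. The 12 protein-coding Y genes of the list, among them the sperm dynein gene kl-3, had summed levels of 0.448 to 0.606 CPM in males, against 0.0799 to 0.134 CPM in wildtype-mated females and none was tested. The noncoding Su(Ste):CR42430, which belongs to a family of near-identical repeats, had 19, 17 and 11 counts in males, against 0, 0 and 0 in wildtype-mated females. This is at least 14.4-fold higher in males against a floor of 3 counts over the female group, and counts were found in 12 of 12 male libraries of the series and in 2 of 36 female libraries. A pre-rRNA unit on the unplaced ribosomal DNA contig, pre-rRNA:CR45847, had 40.5, 101 and 88.2 CPM in males, against 0.578, 0.569 and 0.599 CPM in wildtype-mated females (log2 fold change 7.03 ± 0.37 (SE), edgeR adjusted p = 8.11e-12). The male values were all higher at this unit. Another unit, pre-rRNA:CR45845, went the other way, with 3688, 3405 and 2944 counts in males, against 6534, 6956 and 4932 counts in wildtype-mated females. Ribosomal DNA is repeated on the X and the Y, ribosomal RNA was depleted from the libraries, and assignment of reads to a copy is uncertain.

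Of the 13 genes of sex determination, 1 was higher and 2 were lower in males (23.1% called, against 7.21% of all genes tested). dsx, Sxl and fru kept these calls under every alternative run for single genes (assignment by the record was run for counts only). Sxl, the master regulator, at X:7074550-7098053, had 520.2, 573 and 591 CPM in males, against 869, 915 and 947 CPM in wildtype-mated females. Levels in males were below those in females in every library (log2 fold change -0.70 ± 0.046 (SE), edgeR adjusted p = 5e-10). dsx, the transcription factor that sets somatic sex in many tissues, at 3R:7924323-7967408, had 23.7, 14.3 and 16.1 CPM in males, against 7.12, 9.67 and 8.39 CPM in wildtype-mated females, all higher in males (log2 fold change 1.1 ± 0.19 (SE), edgeR adjusted p = 0.000597). fru, whose male form builds the courtship circuit, at 3R:18414273-18545586, had 316, 248 and 276 CPM in males, against 458, 382 and 402 CPM in wildtype-mated females, all lower in males (log2 fold change -0.56 ± 0.075 (SE), edgeR adjusted p = 2.77e-05). tra, which lies between Sxl and these genes, had 14.6, 10.1 and 12.3 CPM in males, against 12.7, 15.6 and 12.9 CPM in wildtype-mated females, with overlapping groups (log2 fold change -0.16 ± 0.12 (SE), edgeR adjusted p = 0.584). The remaining members, from tra2 to the ovarian gene otu, had log2 fold changes between -0.38 and 0.30 without a call. Counts per gene sum over all transcripts, so the sex-specific isoforms of Sxl, tra, dsx and fru were not resolved, and lds lies antisense to dsx.

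**Figure D3:**
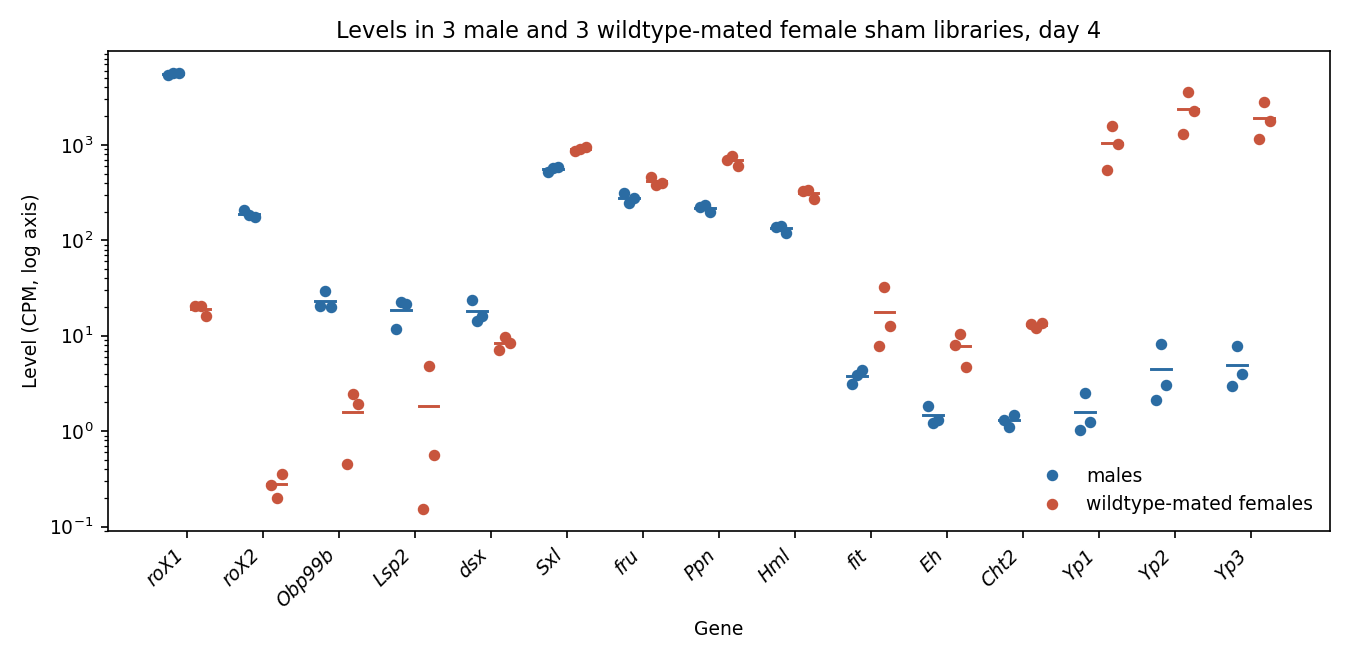
Level in CPM (log axis) of 15 genes in each of the 3 male and 3 wildtype-mated female sham libraries, with points for single libraries and lines for means. roX1, roX2, Obp99b, Lsp2 and dsx are higher in males, Yp1, Yp2, Yp3, Cht2, Eh, fit, Hml, Ppn, fru and Sxl are higher in females, and the sexes overlap at none of them.

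Genes listed for yolk and fat body gave the largest falls among genes named by rule, and several of the larger rises, below those of roX1 and roX2. The tissue that made these RNAs was not tested. The 3 yolk protein genes, which females use to provision eggs, summed to a mean of 11.0 CPM in males and 5319 CPM in wildtype-mated females. Yp1, at X:10053811-10055498, had 1.03, 2.51 and 1.24 CPM in males, against 548, 1560.2 and 1017 CPM in wildtype-mated females (log2 fold change -9.33 ± 0.46 (SE), edgeR adjusted p = 3.23e-12). Its neighbour Yp2, at X:10050951-10052636, had 2.14, 8.21 and 3.05 CPM in males, against 1286, 3545 and 2263 CPM in wildtype-mated females (log2 fold change -9.03 ± 0.55 (SE), edgeR adjusted p = 1.23e-10). Yp3, at X:13759546-13761547, had 2.99, 7.79 and 3.94 CPM in males, against 1147, 2830.2 and 1761 CPM in wildtype-mated females (log2 fold change -8.59 ± 0.43 (SE), edgeR adjusted p = 3.23e-12). Even the lowest female library was far above the highest male library at all of them. fit, a fat body peptide gene of females named for its independence of transformer, had 3.1, 3.85 and 4.41 CPM in males, against 7.79, 32.7 and 12.5 CPM in wildtype-mated females (log2 fold change -2.22 ± 0.46 (SE), edgeR adjusted p = 0.00403). Female 2 was the highest, and without it the log2 fold change was -1.41 and the call was lost (edgeR adjusted p = 0.0642 without female 2).

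In the other direction, Obp99b, an odorant-binding protein gene, at 3R:29716254-29716896, had 20.5, 29.7 and 19.8 CPM in males, against 0.457, 2.44 and 1.92 CPM in wildtype-mated females (log2 fold change 3.88 ± 0.36 (SE), edgeR adjusted p = 2.09e-07). The hexamerin Lsp2, a storage protein of the blood, had 11.9, 22.5 and 21.8 CPM in males, against 0.152, 4.85 and 0.559 CPM in wildtype-mated females (log2 fold change 3.33 ± 0.77 (SE), edgeR adjusted p = 0.00949), and the call was lost without female 3 (edgeR adjusted p = 0.0581). Another hexamerin gene, Lsp1beta, had 4.88, 9.25 and 6.36 CPM in males, against 0.426, 2.24 and 0.28 CPM in wildtype-mated females (log2 fold change 2.78 ± 0.58 (SE), edgeR adjusted p = 0.00376). Male libraries were all above female libraries at these 3 genes, with a wide spread among males or females. The cytochrome P450 gene Cyp4d21 had 17, 23 and 24 counts in males, against 0, 0 and 0 in wildtype-mated females, at least 19.6-fold higher in males against 3 counts over the group. Across the series it had counts in 12 of 12 male libraries and 15 of 36 female libraries. The alpha-glucosidase gene tobi had 15.4, 38.6 and 29.8 CPM in males, against 3.59, 11.9 and 4.96 CPM in wildtype-mated females (log2 fold change 2.04 ± 0.54 (SE), edgeR adjusted p = 0.0247), and its adjusted p was 0.112 without male 2, 0.0685 without male 3, 0.101 without female 1 and 0.114 without female 3.

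Of the 9 genes in the list of yolk and sex-biased fat body genes, 3 were higher and 4 lower in males (77.8% called, against 7.21% of all genes tested). The uncalled members were sxe2, with a log2 fold change of 0.088, and to, with -5.9 ± 2.14 (SE) (edgeR adjusted p = 0.12). Of 11 general fat body genes, Lsp1beta was higher and 3 were lower (36.4% called). The lipoprotein gene apolpp had 1481, 1805 and 1619 CPM in males, against 1901, 3596 and 2527 CPM in wildtype-mated females (log2 fold change -0.71 ± 0.19 (SE), edgeR adjusted p = 0.0217), and the adipokinetic hormone receptor AkhR had 2.78, 4.09 and 3.55 CPM in males, against 4.48, 11.7 and 9.51 CPM in wildtype-mated females (log2 fold change -1.29 ± 0.35 (SE), edgeR adjusted p = 0.0283). The fatty acid synthase FASN1, also the only call among 12 genes of lipid metabolism (8.33%), had 583, 753 and 758 CPM in males, against 835, 1183 and 1017 CPM in wildtype-mated females (log2 fold change -0.54 ± 0.15 (SE), edgeR adjusted p = 0.0366). Groups did not overlap at these genes, but each call depended on single libraries. For apolpp the adjusted p was 0.108 without male 1, 0.074 without male 3 and 0.215 without female 2, for AkhR 0.134 without male 1, 0.0532 without male 2, 0.0864 without male 3, 0.178 without female 2 and 0.0941 without female 3, and for FASN1 0.204 without male 1, 0.0576 without male 2, 0.0574 without male 3, 0.211 without female 2 and 0.0959 without female 3. The list held 0 or 1 lower calls without any of male 1, male 2, male 3, female 2 and female 3, and 5 without female 1, and the lipid metabolism list also held 5 without female 1. Summed levels of the general fat body list were 2657 to 3264 CPM in males, against 3357 to 5678 CPM in wildtype-mated females. In bulk libraries, fewer cells of a type and less RNA per cell cannot be told apart, and the part of fat body left on the dissected brains in these differences was not tested.

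Most hemocyte genes were lower in males. Of 9 genes, 7 were lower and none was higher, which is 77.8% called against 7.21% of all genes tested, and the median log2 fold change was -1.14, against 0.0082 over all genes tested. Hml, the clotting protein hemolectin and the standard hemocyte marker, at 3L:13846054-13860001, had 138, 141 and 120.0 CPM in males, against 326, 335 and 272 CPM in wildtype-mated females. Every male library was below every female library (log2 fold change -1.23 ± 0.10 (SE), edgeR adjusted p = 6.2e-08). The phagocytosis receptor NimC1 had 11.5, 13 and 11.5 CPM in males, against 31.9, 36.4 and 22.9 CPM in wildtype-mated females (log2 fold change -1.34 ± 0.20 (SE), edgeR adjusted p = 0.00012). Its relative eater had 3.6, 5.34 and 4.41 CPM in males, against 9.44, 11.5 and 8.19 CPM in wildtype-mated females (log2 fold change -1.12 ± 0.16 (SE), edgeR adjusted p = 8.14e-05), and the scavenger receptor Sr-CI had 19.3, 21 and 16 CPM in males, against 34.5, 45.1 and 37.2 CPM in wildtype-mated females (log2 fold change -1.05 ± 0.13 (SE), edgeR adjusted p = 1.45e-05). No male value reached a female value at these receptors. The extracellular matrix protein papilin (Ppn), at 3R:28520665-28540324, had 221, 233 and 195 CPM in males, against 697, 771 and 598 CPM in wildtype-mated females (log2 fold change -1.67 ± 0.11 (SE), edgeR adjusted p = 6.69e-10). The prophenoloxidases of crystal cells, PPO1 and PPO2, were lower by a log2 fold change of -1.14 ± 0.28 (SE) for PPO1 and -1.08 ± 0.26 (SE) for PPO2 (edgeR adjusted p = 0.0147 and 0.0111). These calls were the less stable ones: PPO1 had an adjusted p of 0.0964 without male 3, and PPO2 of 0.0759 without male 3 and 0.0571 without female 1. The uncalled members were He, with -1.67 ± 0.59 (SE) (edgeR adjusted p = 0.105), and the peroxidasin gene Pxn, with 0.16 ± 0.048 (SE) (edgeR adjusted p = 0.0551). Summed levels of the list were 765 to 882 CPM in males, against 1448 to 1745 CPM in wildtype-mated females. The list had 7 lower calls without female 3 and male 1 together, 5 without male 3, and 6 with 1 higher call without female 1. DESeq2 also called 1 member higher, beside 7 lower.

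The families in this paragraph were listed after their values were seen. Of 14 basement membrane genes, 7 were lower and none higher in males, against 3.69% lower among all genes tested, with a median log2 fold change of -0.44. The laminin subunits LanA, LanB1 and LanB2 had log2 fold changes of -0.99, -0.59 and -0.70 (edgeR adjusted p = 1.1e-08, 0.000296 and 1.05e-05). LanA had 64.4, 75.1 and 65.7 CPM in males, against 134, 149 and 125 CPM in wildtype-mated females, and nidogen (Ndg), which links laminin to collagen, had 2.03, 2.24 and 2.1 CPM in males, against 5.42, 8.8 and 6.87 CPM in wildtype-mated females (log2 fold change -1.72 ± 0.31 (SE), edgeR adjusted p = 0.00104). The integrin ligand Tig had 7.63, 10.1 and 10.4 CPM in males, against 18.1, 35.8 and 26.1 CPM in wildtype-mated females (log2 fold change -1.5 ± 0.23 (SE), edgeR adjusted p = 0.00018), and the metalloprotease AdamTS-B had 8.59, 8.54 and 8.94 CPM in males, against 25.9, 24.8 and 23 CPM in wildtype-mated females (log2 fold change -1.5 ± 0.13 (SE), edgeR adjusted p = 7.16e-08). At each of these genes the male libraries were all lower. The collagen IV genes Col4a1 and vkg, at -0.29 and -0.16, and perlecan (trol), at 0.094, had no call. Of 18 Nimrod, scavenger and thioester genes, 9 were lower and none higher. The hemocyte list also holds genes of these families (NimC1, eater and Sr-CI), and the counts are not to be read as separate. NimB2, a secreted member, had 6.1, 11.4 and 8.55 CPM in males, against 16.4, 26.9 and 19.2 CPM in wildtype-mated females (log2 fold change -1.26 ± 0.21 (SE), edgeR adjusted p = 0.000453), and NimC2 had 2.57, 2.69 and 2.34 CPM in males, against 6.58, 6.29 and 3.44 CPM in wildtype-mated females (log2 fold change -1.11 ± 0.21 (SE), edgeR adjusted p = 0.00142), in each case without overlap. The engulfment receptors of glia and macrophages, drpr and crq, had log2 fold changes of -0.079 and -0.10 without a call. Without single libraries, 7 to 9 basement membrane genes and 6 to 8 Nimrod and scavenger genes were lower, and 1 basement membrane gene was higher without female 1 and in DESeq2, with 6 of the Nimrod and scavenger genes lower without male 3. Of 8 lectins, 3 were lower (37.5% called, against 7.21% of all genes tested), with 4 positive and 4 negative log2 fold changes in the list, and lectin-24Db had 6.95, 8.09 and 7.76 CPM in males, against 15.5, 16.9 and 13.2 CPM in wildtype-mated females (log2 fold change -1.0 ± 0.12 (SE), edgeR adjusted p = 9.56e-06). Hemocytes make several of these proteins, and the part of hemocyte RNA in their differences was not tested.

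Of 18 genes of the Imd and Toll pathways, 1 was called (5.56%, against 7.21% of all genes tested). This gene, dl, the NF-kappaB factor Dorsal, had 8.73, 11.7 and 10.8 CPM in males, against 18.9, 19.9 and 17.6 CPM in wildtype-mated females, all lower in males (log2 fold change -0.85 ± 0.13 (SE), edgeR adjusted p = 0.000167). The other Toll-pathway factor, Dif, had -0.17 ± 0.065 (SE) (edgeR adjusted p = 0.143), and Relish (Rel), the factor of the Imd pathway, had -0.18 ± 0.096 (SE) (edgeR adjusted p = 0.333). The list had 3 lower calls without female 1. Of 16 antimicrobial peptide genes, 0 were called, 0 had an unadjusted p under 0.05, and DESeq2 called 0.

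Among 28 neuropeptide genes, 5 were lower in males and none was higher (17.9% called, against 7.21% of all genes tested). Eclosion hormone (Eh), which triggers moulting behaviour, at 3R:17446642-17448858, had 1.85, 1.22 and 1.3 CPM in males, against 8.07, 10.5 and 4.76 CPM in wildtype-mated females. Males were low, and each female library was above them (log2 fold change -2.42 ± 0.32 (SE), edgeR adjusted p = 3.06e-05). Ilp3, an insulin-like peptide of the insulin-producing cells of the brain, at 3L:9801298-9802120, had 10.4, 8.84 and 9.38 CPM in males, against 24.9, 23.4 and 21.8 CPM in wildtype-mated females. The lowest female library was above the highest male library (log2 fold change -1.3 ± 0.13 (SE), edgeR adjusted p = 8.06e-07). The peptides Ilp2 and Ilp5, made by the same cells, were at -0.033 ± 0.077 (SE) and -0.065 ± 0.19 (SE) on the log2 scale without a call (edgeR adjusted p = 0.882 and 0.909). The myotropic peptide proctolin (Proc) had 59.1, 60.8 and 61.2 CPM in males, against 93, 77.9 and 81.6 CPM in wildtype-mated females (log2 fold change -0.48 ± 0.070 (SE), edgeR adjusted p = 9.35e-05). The ion transport peptide ITP, which limits water loss, had 144, 133 and 132 CPM in males, against 171, 164 and 168 CPM in wildtype-mated females (log2 fold change -0.30 ± 0.063 (SE), edgeR adjusted p = 0.00448). The osmoregulatory peptide gene Capa had 34.5, 33 and 30.1 CPM in males, against 40.1, 42.4 and 36.7 CPM in wildtype-mated females (log2 fold change -0.29 ± 0.076 (SE), edgeR adjusted p = 0.0218), and its adjusted p was 0.118 without male 3 and 0.132 without female 2. Male libraries were lower throughout at these 3 genes. Without female 1 the list also had 2 higher calls. Of the rest of the list, 12 genes had a positive and 11 a negative log2 fold change without a call. All 29 listed genes, tested or not, summed to 1949 to 2075 CPM in males, against 2033 to 2160.4 CPM in wildtype-mated females.

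In the insulin pathway, 3 of 11 genes were lower and 1 was higher in males (36.4% called, against 7.21% of all genes tested). Besides Ilp3, the insulin receptor InR had 146, 164 and 176 CPM in males, against 198, 232 and 224 CPM in wildtype-mated females (log2 fold change -0.43 ± 0.096 (SE), edgeR adjusted p = 0.00746), and Thor, the translation repressor 4E-BP, had 5.06, 8.96 and 8.29 CPM in males, against 10.9, 26.2 and 19.1 CPM in wildtype-mated females (log2 fold change -1.32 ± 0.32 (SE), edgeR adjusted p = 0.0135). Ilp6, an insulin-like growth factor of fat body and glia, had 31.5, 31.4 and 30.8 CPM in males, against 18.4, 24.5 and 25.5 CPM in wildtype-mated females (log2 fold change 0.46 ± 0.12 (SE), edgeR adjusted p = 0.0219). Males and females did not overlap at InR, Thor and Ilp6, but the calls rested on few libraries. The adjusted p of InR was 0.06 without male 1, that of Thor 0.0886 without male 1 and 0.115 without female 2, and that of Ilp6 0.0764 without male 1, 0.0719 without male 2, 0.0618 without male 3 and 0.134 without female 1. The lower calls of the list numbered 1 without male 1 and 5 without female 1. The kinase Akt, the adaptor chico and the factor foxo had log2 fold changes between -0.16 and -0.11 without a call.

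Differences among aminergic and hormone-receptor genes were small. Of 14 monoamine genes (21.4% called, against 7.21% of all genes tested), the dopamine receptor Dop2R had 1254, 1216 and 1248 CPM in males, against 1560.0, 1453 and 1503 CPM in wildtype-mated females (log2 fold change -0.28 ± 0.058 (SE), edgeR adjusted p = 0.00342), and the octopamine receptor Octbeta2R had 397, 395 and 405 CPM in males, against 444, 445 and 452 CPM in wildtype-mated females (log2 fold change -0.17 ± 0.035 (SE), edgeR adjusted p = 0.00423). Another dopamine receptor, Dop1R2, was called higher at 0.18 ± 0.048 (SE) (edgeR adjusted p = 0.0272), with an adjusted p of 0.114 without male 1, 0.0804 without male 2, 0.07 without male 3, 0.156 without female 2 and 0.118 without female 3. Enzymes and transporters of the transmitters (ple, Ddc, Vmat, DAT, SerT, Trhn, Tdc2 and Tbh) lay between 0.02 and 0.19 without a call. Both juvenile hormone receptors, which are X-linked, were lower in males: gce had 103, 107 and 116 CPM in males, against 126, 133 and 137 CPM in wildtype-mated females (log2 fold change -0.28 ± 0.051 (SE), edgeR adjusted p = 0.00104), and Met had 94.1, 89.3 and 91.1 CPM in males, against 103, 104 and 103 CPM in wildtype-mated females (log2 fold change -0.17 ± 0.043 (SE), edgeR adjusted p = 0.0159). The adjusted p of Met was 0.0638 without male 2 and 0.0626 without female 2. Eip74EF, an early target of ecdysone, had 116, 107 and 112 CPM in males, against 133, 133 and 134 CPM in wildtype-mated females, all lower in males (log2 fold change -0.26 ± 0.040 (SE), edgeR adjusted p = 0.000172). The other 11 of 14 genes of these hormones had no call, and 21.4% of the list were called. Nor was the sex peptide receptor SPR called, with 98, 96 and 93.2 CPM in males, against 89.9, 87.4 and 87.9 CPM in wildtype-mated females (log2 fold change 0.11 ± 0.054 (SE), edgeR adjusted p = 0.267).

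Neuronal and glial markers differed little in size. Of 14 neuronal genes (21.4% called, against 7.21% of all genes tested), the RNA-binding protein elav had -0.20 ± 0.050 (SE) (edgeR adjusted p = 0.0176), choline acetyltransferase (ChAT) 0.18 ± 0.043 (SE) (edgeR adjusted p = 0.0137) and glutamate decarboxylase (Gad1) 0.21 ± 0.049 (SE) (edgeR adjusted p = 0.00922). Their adjusted p was 0.0724 without male 2 and 0.067 without female 3 for elav, 0.069 without male 2, 0.105 without male 3, 0.08 without female 2 and 0.0992 without female 3 for ChAT and 0.0693 without male 2 and 0.086 without male 3 for Gad1. Exons of ChAT overlap those of VAChT on the same strand, and exons of elav those of the noncoding RNA enrr, so their reads may be split. Synaptic genes such as nSyb, Syt1, brp and cac lay between -0.01 and 0.11 without a call. Of 11 glial genes, 5 were higher in males and none lower (45.5% called, against 7.21% of all genes tested). Their median was 0.19, with sums of 5383 to 5678 CPM in males, against 4709 to 4905 CPM in wildtype-mated females. Glutamine synthetase (Gs2) had 1663, 1762 and 1720.0 CPM in males, against 1284, 1354 and 1365 CPM in wildtype-mated females (log2 fold change 0.36 ± 0.065 (SE), edgeR adjusted p = 0.000927), and the astrocyte gene alrm had 202, 203 and 193 CPM in males, against 175, 166 and 161 CPM in wildtype-mated females (log2 fold change 0.25 ± 0.048 (SE), edgeR adjusted p = 0.00151). The males were the higher group at both in every library. The barrier receptor moody, the GABA transporter Gat and the cytochrome Cyp4g15 had log2 fold changes of 0.27, 0.23 and 0.32, with adjusted p of 0.0156, 0.0118 and 0.0308 in edgeR. The adjusted p was 0.116 without male 2, 0.058 without male 3 and 0.112 without female 1 for moody, 0.11 without male 2 and 0.106 without female 3 for Gat and 0.0753 without male 1, 0.116 without male 2, 0.0774 without male 3, 0.111 without female 1 and 0.137 without female 2 for Cyp4g15. The glial count fell to 2 without male 2 and to 3 without male 3 or without female 1, and the pan-glial factor repo was at 0.067 ± 0.062 (SE) without a call. Of 12 photoreceptor genes, all had a positive log2 fold change, and the phospholipase gene norpA alone was called (8.33% of the list, against 7.21% of all genes tested), with 718, 770.4 and 787 CPM in males, against 643, 648 and 668 CPM in wildtype-mated females (log2 fold change 0.22 ± 0.038 (SE), edgeR adjusted p = 0.000867). Their sum was 1017 to 1336 CPM in males, against 839 to 1072 CPM in wildtype-mated females, and ninaE, the main rhodopsin, had 1.26 ± 0.81 (SE) without a call (edgeR adjusted p = 0.467).

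Lists of energy metabolism were also made after their values were seen, and they are read against the 3.52% of all genes tested that were called higher in males. Of 76 oxidative phosphorylation genes encoded in the nucleus, 21 were higher and none lower, 55 had no call, and 12 had a negative log2 fold change, with a median log2 fold change of 0.22. ATP synthase subunit alpha (blw) had 798, 801 and 800.27 CPM in males, against 650.3, 611 and 642 CPM in wildtype-mated females (log2 fold change 0.33 ± 0.044 (SE), edgeR adjusted p = 2.92e-05), and the cytochrome c oxidase subunit COX4 had 163, 159 and 151 CPM in males, against 129, 125 and 119 CPM in wildtype-mated females (log2 fold change 0.34 ± 0.052 (SE), edgeR adjusted p = 0.000154). Of 15 genes of the tricarboxylic acid cycle, 11 were higher and all had a positive log2 fold change. The aconitase mAcon1 had 679, 713 and 699 CPM in males, against 595, 590.3 and 596 CPM in wildtype-mated females (log2 fold change 0.23 ± 0.033 (SE), edgeR adjusted p = 7.51e-05). The mitochondrial phosphate carrier Mpcp2 had 603, 654 and 623 CPM in males, against 511, 514 and 498 CPM in wildtype-mated females (log2 fold change 0.30 ± 0.033 (SE), edgeR adjusted p = 2.03e-06). All 3 male libraries were above all 3 female libraries at each of these 4 genes, by amounts well under 0.5 on the log2 scale. Of 13 glycolytic genes 4 were higher, with pyruvate kinase (PyK) at 0.19 ± 0.039 (SE) (edgeR adjusted p = 0.00348), and of 25 vacuolar ATPase genes 6 were higher. The counts depended on single libraries. Oxidative phosphorylation had 12 calls without male 1 and 9 without male 1 and female 3, against 14 to 19 without another single library. The tricarboxylic acid cycle had 6 without female 1, 7 without male 1 and 4 without male 1 and female 3. Glycolysis had 1 or 2 without any single library, and the vacuolar ATPase had 2 without male 1, male 2 or female 2, and 3 without male 3 or female 3. Of 85 cytosolic ribosomal protein genes 2 were lower in males (2.35%, against 3.69% lower among all genes tested), RpL37A at -0.21 and RpS14a at -0.53, and reads of RpS14a may be split with a near-identical tandem copy. That count was 5 without male 1 and 1 without male 2, male 3, female 2 or female 3.

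**Figure D4:**
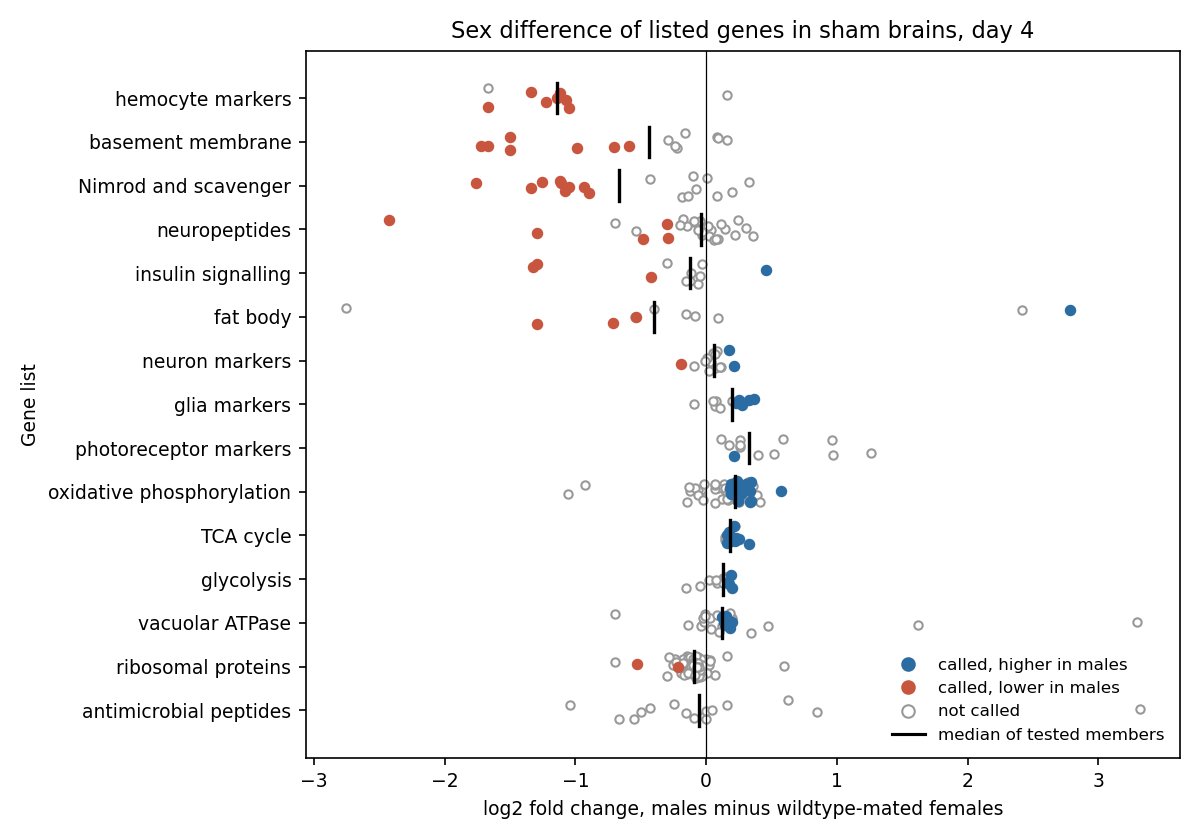
Log2 fold change (males minus wildtype-mated females) of each tested member of 15 gene lists, with filled points for called members, open points for the others and a bar at the median. Hemocyte, basement membrane and Nimrod genes lie mostly below 0, glial, oxidative phosphorylation and tricarboxylic acid cycle genes mostly above 0, and antimicrobial genes around 0 with no called member.

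Several of the largest differences lay outside the groups described so far. Cht2, a chitinase, at 3L:1752328-1755934, had 1.32, 1.1 and 1.48 CPM in males, against 13.1, 12 and 13.6 CPM in wildtype-mated females (log2 fold change -3.31 ± 0.18 (SE), edgeR adjusted p = 2.39e-11). Root, the ciliary rootlet protein of sensory neurons, had 1.43, 1.82 and 1.63 CPM in males, against 4.69, 12 and 8.23 CPM in wildtype-mated females (log2 fold change -2.35 ± 0.41 (SE), edgeR adjusted p = 0.000761). The ornithine decarboxylase Odc1 had 0.82, 1.49 and 0.799 CPM in males, against 2.34, 7.53 and 5.04 CPM in wildtype-mated females (log2 fold change -2.25 ± 0.42 (SE), edgeR adjusted p = 0.00141). The groups were separate at these 3 genes, with males low. The class I myosin Myo61F had 1.21, 1.34 and 0.592 CPM in males, against 3.59, 3.88 and 5.08 CPM in wildtype-mated females (log2 fold change -1.99 ± 0.40 (SE), edgeR adjusted p = 0.00266), and CG8539 had 1.75, 1.79 and 1.66 CPM in males, against 4.87, 10.7 and 6.43 CPM in wildtype-mated females (log2 fold change -2.08 ± 0.26 (SE), edgeR adjusted p = 1.56e-05). The X-linked noncoding RNA CR32636 had 1.53, 0.955 and 1.18 CPM in males, against 4.2, 4.15 and 4.48 CPM in wildtype-mated females (log2 fold change -1.81 ± 0.19 (SE), edgeR adjusted p = 1.52e-06). Each of these, too, was lower in every male library. CG9928 had -1.81 ± 0.50 (SE) (edgeR adjusted p = 0.0299), with an adjusted p of 0.145 without male 1, 0.127 without male 3, 0.211 without female 2 and 0.0542 without female 3.

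Among the rises outside these groups, the mucin gene Muc14A had 5.24, 6.51 and 5.42 CPM in males, against 0.792, 1.2 and 0.999 CPM in wildtype-mated females (log2 fold change 2.52 ± 0.30 (SE), edgeR adjusted p = 5.95e-06). The uncharacterized CG32706 had 4.53, 2.96 and 3.17 CPM in males, against 1.16, 1.0 and 1.16 CPM in wildtype-mated females (log2 fold change 1.68 ± 0.29 (SE), edgeR adjusted p = 0.000686), and the replication helicase subunit Mcm3 had 3.28, 3.13 and 3.76 CPM in males, against 1.31, 1.2 and 0.919 CPM in wildtype-mated females (log2 fold change 1.56 ± 0.25 (SE), edgeR adjusted p = 0.000329). All 3 genes are X-linked and had no overlap between the sexes. Act79B, an actin of muscle, had 41.6, 35.9 and 37.8 CPM in males, against 14.7, 18.4 and 10.6 CPM in wildtype-mated females (log2 fold change 1.39 ± 0.16 (SE), edgeR adjusted p = 3.15e-06), whereas 0 of 8 muscle markers were called. The X-linked peptidase gene Gcna had 10.7, 11.9 and 10.9 CPM in males, against 4.02, 4.22 and 5.55 CPM in wildtype-mated females (log2 fold change 1.29 ± 0.15 (SE), edgeR adjusted p = 4.47e-06), again higher in every male library. Cyp4g1, which makes cuticular hydrocarbons in oenocytes, was called at 4.21 ± 0.87 (SE), but its levels were 85, 2.0 and 2.72 CPM in males, against 1.43, 2.01 and 1.36 CPM in wildtype-mated females. Male 1 alone was high, and without it the log2 fold change was 0.55 (edgeR adjusted p = 0.401 without male 1).

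Lists without a called gene were those of the circadian clock (0 of 12, with 1 at an unadjusted p under 0.05), muscle (0 of 8, with 1), gut (0 of 13, with 4), Turandot stress genes (0 of 4, with 0), male reproductive genes (0 of 7, with 1), female reproductive genes (0 of 4, with 0), purine and folate metabolism (0 of 14, with 3) and sex peptide response (0 of 3, with 1). DESeq2 called 1 gene of purine and folate metabolism and 0 in each of the other lists. Leaving out a library brought 1 call in the circadian list without male 1, 1 in the gut list without female 1, and 1 in the muscle list without male 2 or without female 2. Reproductive genes, which could mark stray tissue, were also summed, whether tested or not. The 20 male reproductive genes summed to 11.8 to 16.4 CPM in males, against 10.6 to 10.9 CPM in wildtype-mated females. The 13 female reproductive genes summed to 4.74 to 4.88 CPM in males, against 4.68 to 6.66 CPM in wildtype-mated females.

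The same contrast was made between D3Inj males and D3Inj wildtype-mated females, in 6 other libraries. Both contrasts come from the fit of 24 libraries and share its estimate of the spread. It called 905 of 12124 genes (7.46%), 443 (3.65%) higher and 462 (3.81%) lower in males. Of the 874 genes called in sham brains, 861 had the same direction in D3Inj brains and 558 were also called there with the same direction, which is 63.8% of the sham calls and 61.7% of the D3Inj calls. None was called in opposite directions. Sxl had 529, 566 and 595 CPM in D3Inj males, against 942, 902 and 919 CPM in D3Inj wildtype-mated females, a log2 fold change of -0.71 ± 0.046 (SE), edgeR adjusted p = 3.13e-10. Hml had 182, 133 and 143 CPM in D3Inj males, against 378, 426 and 341 CPM in D3Inj wildtype-mated females, a log2 fold change of -1.32 ± 0.10 (SE), edgeR adjusted p = 1.73e-08. Ilp3 had 11.4, 8.72 and 8.61 CPM in D3Inj males, against 22.6, 27.6 and 21.9 CPM in D3Inj wildtype-mated females, a log2 fold change of -1.32 ± 0.13 (SE), edgeR adjusted p = 4.08e-07. Each of these genes was lower in D3Inj males without overlap. On the X, 161 genes were higher and 237 lower in D3Inj males, with a median of -0.040 over all X genes. Glial genes had 6 higher calls of 11, oxidative phosphorylation 34 of 76, and the tricarboxylic acid cycle 11 of 15, none with a lower call. Neuronal genes had 0 calls of 14. Genes whose sham call rested on single libraries were mixed here: Cyp4g1 had 0.25 ± 0.85 (SE), edgeR adjusted p = 0.924, and FASN1 had -0.65 ± 0.15 (SE), edgeR adjusted p = 0.0097. apolpp was also called (edgeR adjusted p = 0.0297). ChAT, elav, Dop1R2 and Capa were not (edgeR adjusted p = 0.284, 0.12, 0.592 and 0.224). Arc1, called in sham brains, had -0.11 ± 0.067 (SE) (edgeR adjusted p = 0.454). The difference between the sham and the D3Inj contrast was itself tested, and 0 of 12124 genes (0%) passed, with 425 at an unadjusted p under 0.05 and 5 called by DESeq2.

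**Figure D5:**
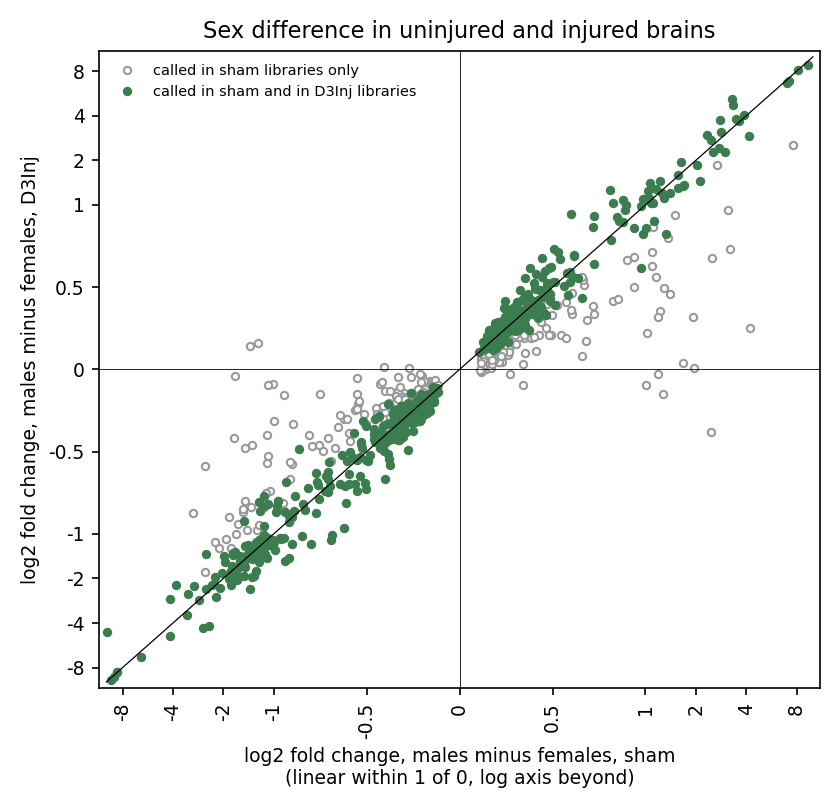
Log2 fold change of males minus wildtype-mated females in D3Inj brains (y axis) against that in sham brains (x axis) for the 874 genes called in sham brains, with filled points for genes called in both and axes that are linear within 1 of 0 and logarithmic beyond. Of these genes, 861 lie on the same side of 0 in both contrasts and 558 are called in both.

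The sex difference on day 4 was set against that on day 45 in a fit over all 48 libraries. It differed between the ages at 13 of 12739 genes (0.102%), 9 of them among the 874 called on day 4. The count was 50 in DESeq2, and 27 without wildtype-mated female 1 of day 4. Scaled over all 48 libraries, Ilp3 had 10.8, 9.19 and 9.81 CPM in day 4 males, against 25.9, 24.4 and 22.7 CPM in day 4 wildtype-mated females, and 3.41, 2.94 and 1.27 CPM in day 45 males, against 16.7, 25.9 and 13.3 CPM in day 45 wildtype-mated females. The groups were apart at both ages, and more so on day 45 (difference of the log2 fold changes, day 4 minus day 45, 1.5 ± 0.32 (SE), edgeR adjusted p = 0.0491). roX1 had 5634, 5941 and 5870.4 CPM in day 4 males, against 21.4, 21.2 and 16.9 CPM in day 4 wildtype-mated females, and 5815, 5715 and 5857 CPM in day 45 males, against 56.7, 42.2 and 44.8 CPM in day 45 wildtype-mated females. The male level was similar at both ages and the low female level was higher on day 45 (difference 1.27 ± 0.14 (SE), edgeR adjusted p = 2.17e-07).

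The females compared here were mated, and the mating status of the males is not made clear. Between wildtype-mated and virgin sham females of day 4, 8 of 12124 genes (0.066%) were called, with 972 at an unadjusted p under 0.05, and 1 of the 8 was among the 874. That count was 0 without wildtype-mated female 1, 0 without wildtype-mated female 2, 0 without virgin 3, 4 without virgin 2 and 36 without virgin 1, and 24 in DESeq2. Beside the levels already given, Yp1 had 322, 590.0 and 573 CPM in virgin females and 572, 696 and 738 CPM in SP0-mated females. Ilp3 had 16.5, 17.4 and 17.5 CPM in virgin females and 21.6, 17.8 and 18.4 CPM in SP0-mated females. Hml had 261, 292 and 286 CPM in virgin females and 309.5, 355 and 367 CPM in SP0-mated females, and Sxl had 918, 936 and 937 CPM in virgin females and 898, 918 and 908 CPM in SP0-mated females. At each of these 4 genes every virgin and SP0-mated library was above the 3 male libraries. For other genes, picked with their values in view, the estimates varied with the females used. None was called between wildtype-mated and virgin females (edgeR adjusted p = 0.308 for Dop1R2, 0.389 for Capa, 0.0705 for LanB2, 0.526 for dsx). All of these estimates share the 3 male libraries. Dop1R2 in males was at 0.0020 ± 0.047 (SE) on the log2 scale against virgin and -0.022 ± 0.047 (SE) against SP0-mated females. Capa was at -0.059 ± 0.076 (SE) and -0.19 ± 0.075 (SE), and LanB2 at -0.29 ± 0.086 (SE) and -0.71 ± 0.086 (SE). The difference of dsx was 1.6 ± 0.19 (SE) against virgin and 0.92 ± 0.19 (SE) against SP0-mated females.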

How the data were processed

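RNA of pooled Drosophila melanogaster brains was rRNA-depleted and sequenced as paired 101 bp reads. The authors aligned reads to dm6 (RNA STAR, Ensembl annotation) on Galaxy and deposited raw counts per gene from featureCounts. Their versions and the strand setting are not stated in the sources used here. The deposit record and the column header name different samples for 47 of 48 tables, and the header was used, with the headers that say young read as D3Inj. All count columns were used (0 were left out). Totals were 25719255 to 34546503 counts in the 6 sham libraries compared here. Where a group had no counts, a floor of 3 counts over the group was used, which covers counting error alone.

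The 24 libraries of day 4 were fitted in edgeR 4.0.16 (R 4.3.3) with TMM normalization, filterByExpr and 1 coefficient for each of 8 groups. Quasi-likelihood F tests were adjusted by Benjamini-Hochberg over 14631 features kept, of which 12124 were genes, and called at an adjusted p under 0.05. CPM are TMM-scaled, fitted fold changes are log2 values, and the standard error is the fold change over the root of F. Age was tested over 48 libraries (15640 features). P-values measure the spread between pooled cohorts of 40 flies, and with 3 against 3 a permutation test could not go below 0.1. Coordinates and names come from Ensembl release 115 (BDGP6.54, the dm6 assembly), and 79 genes had no symbol.

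Named genes were the 12 largest rises and the 12 largest falls among called genes that averaged 1 log2 CPM or more and whose groups did not overlap, called list members, a set of sex-determination, dosage, yolk, Y-linked and mating genes whatever their values, and the 3 smallest p of each interaction. Members and lists were chosen with earlier results of these data known. The basement membrane, Nimrod and scavenger, oxidative phosphorylation, tricarboxylic acid cycle, glycolysis, vacuolar ATPase, ribosomal protein, chitinase and lectin lists, and the genes said to be so, were picked with their values in view. The chitinase list had 1 gene higher (Idgf3) and 3 lower (Cht2, Idgf1 and Idgf2) of 13 (30.8% called), and the pheromone list had Cyp4g1 higher of 7 (14.3%), against 7.21% of all genes tested. Of the 3 genes with the smallest p for the injury interaction, CG31077 had a sham log2 fold change of -3.87 ± 1.31 (SE) without a call (edgeR adjusted p = 0.0876), which was -0.51 without female 3 (edgeR adjusted p = 0.915), where it had 45.1 CPM against 1.7 and 1.37 CPM in the other females. GstE11 had a value of 0.30 ± 0.25 (SE) without a call (edgeR adjusted p = 0.609), and CR44445 of 2.47 ± 0.51 (SE) (edgeR adjusted p = 0.00353). Alternatives were DESeq2 1.42.0, RLE size factors, TMM from autosomal genes, no filter, a replicate block, the 6 libraries alone, all 48 libraries, samples by the record and each library left out. On simulated counts for the sham contrast (14456 features), 55% of 100 changes of 0.5 and 84% of 100 changes of 1 on the log2 scale were called, with 5 false calls among 144. The changed genes averaged at least 1 CPM, and no other difference between groups was simulated. Far fewer genes were changed than the 874 called in the data, and depth was not varied.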

Additional observations from a re-analysis of the deposited data

Results flagged for a closer look

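Of the 874 genes called on day 4, 9 had a sex difference that differed between day 4 and day 45 sham brains by the interaction test in edgeR over 48 libraries. Each difference given here is the log2 fold change of males over wildtype-mated females on day 4 minus that on day 45. In size, the sex difference was larger on day 4 for 6 genes and larger on day 45 for 3.

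For roX1 the difference was 1.27 ± 0.14 (SE), edgeR adjusted p = 2.17e-07, and the sex difference on day 45 was 6.92 ± 0.12 (SE). Arc1, the capsid-forming synaptic gene, differed by -0.75 ± 0.12 (SE), edgeR adjusted p = 0.00133. It had 154, 162 and 159 CPM in day 4 males, against 205, 194 and 195 CPM in day 4 wildtype-mated females, and 1191, 1326 and 995 CPM in day 45 males, against 861, 865 and 878 CPM in day 45 wildtype-mated females, so males were lower on day 4 and higher on day 45. The X-linked noncoding RNA CR32636 differed by 1.58 ± 0.26 (SE), edgeR adjusted p = 0.00175, with 1.6, 0.993 and 1.24 CPM in day 4 males, against 4.37, 4.32 and 4.67 CPM in day 4 wildtype-mated females, and 1.35, 0.731 and 1.47 CPM in day 45 males, against 13.2, 11 and 11.9 CPM in day 45 wildtype-mated females. CG1812 differed by -0.38 ± 0.066 (SE), edgeR adjusted p = 0.00362, and its sex difference on day 45 was 0.0064 ± 0.046 (SE). comt, the vesicle fusion ATPase NSF, differed by 0.26 ± 0.048 (SE), edgeR adjusted p = 0.00666, and its sex difference on day 45 was 0.055 ± 0.034 (SE).

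CG9119 differed by -1.58 ± 0.29 (SE), edgeR adjusted p = 0.00666, with 7.44, 8.35 and 8.11 CPM in day 4 males, against 17.8, 13.2 and 14.7 CPM in day 4 wildtype-mated females, and 11.6, 8.79 and 6.23 CPM in day 45 males, against 4.72, 5.51 and 6.98 CPM in day 45 wildtype-mated females. ebo differed by 0.35 ± 0.067 (SE), edgeR adjusted p = 0.0103, and its sex difference on day 45 was -0.13 ± 0.047 (SE). CG43740 differed by 0.33 ± 0.071 (SE), edgeR adjusted p = 0.0392, and its sex difference on day 45 was -0.077 ± 0.050 (SE). Ilp3 differed by 1.5 ± 0.32 (SE), edgeR adjusted p = 0.0491, and its sex difference on day 45 was -2.79 ± 0.24 (SE).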

How the results depend on the processing

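The number of genes called between sham males and wildtype-mated females (874, of which 427 higher and 447 lower) ranged from 556 to 901 when single libraries were left out, with 241 to 385 higher and 308 to 516 lower. It was 488 (211 higher and 277 lower) with the 6 libraries alone, 406 (170 and 236) without male 1 and female 3, an alternative chosen after seeing the data, and 0 (0 and 0) by the record. It was 1020 in DESeq2, of which 854 were among the 874, and between 766 and 936 under the remaining settings. The groups share replicate numbers in their labels. For each gene, the log2 CPM of a library was taken as its deviation from the mean of its own group. These deviations, not the levels, were correlated between male and female libraries. The correlation was 0.241, 0.129 and 0.0635 for same-numbered libraries, against -0.207 to 0.0763 for other pairs. Of 6 libraries, 5 correlated best with their own number. Whether same-numbered libraries share a batch was not tested, and the main fit does not pair them. A replicate block gave 936 calls (459 higher and 477 lower), of which 844 were among the 874. The median over X genes was -0.047 to -0.031 without single libraries. The interaction of sex with injury gave 5 calls in DESeq2. The interaction with age gave 50 in DESeq2 and 9 to 27 without single libraries. Mated against virgin females gave 24 in DESeq2, 25 with no filter, 18 with the replicate block and 0 to 36 without single libraries. The log2 fold change of msl-2 was -0.038 (edgeR adjusted p = 0.853) without male 1 and female 3, the only reversal among the 70 named genes. Of the 64 called ones, 38 kept their direction and call in every setting other than the record, under which no gene was called. Where values changed, the cause was not tested. In the simulation, 55% of changes of 0.5 on the log2 scale were called, so changes of that size can be missed. It changed far fewer genes than the 874 called and did not vary depth, so the share missed in the data is not known. All but 2 of 113 Y-linked genes were below the filter on low counts.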

Other observations

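The X-linked antisense RNA CR45629 (asRNA:CR45629, at chrX:10217627-10219303) had 0, 0 and 0 counts in males, against 37, 40 and 44 counts in wildtype-mated females. This is at least 43.8-fold lower in males against 3 counts over the male group. It had a count in 0 of 12 male libraries of the series and in 36 of 36 female libraries. The gene CG15308 on the opposite strand at the same place had 0, 0 and 0 counts in males, against 5, 11 and 7 counts in wildtype-mated females, at least 8.33-fold lower in males. Because males lack the X of the nSyb-GAL4 father, sex and X haplotype cannot be told apart at this locus.

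The odorant-binding protein gene Obp99a had 0, 0 and 0 counts in sham males of day 4, against 36, 210 and 57 counts in wildtype-mated females, at least 110-fold lower in males, or at least 51.1-fold without female 2. Over the series it had counts in 8 of 12 male libraries and in 36 of 36 female libraries. All 3 genes were picked with their values in view.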
